A study of Mus musculus with 13 samples.

Results

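Class I phosphoinositide 3-kinases (PI3K) add a phosphate to the membrane lipid PIP2 and so make PIP3, the lipid that recruits AKT and other signaling proteins to the plasma membrane. Each enzyme pairs a p110 catalytic subunit with a regulatory subunit. The p110α and p110β subunits (Pik3ca and Pik3cb) are made in most cell types, including adipocytes, where PI3K carries the insulin signal. The p110δ and p110γ subunits (Pik3cd and Pik3cg) are known mainly from leukocytes. The genes described here are the 9 rows of the count table whose Ensembl identifiers mapped to Pik3ca, Pik3cb, Pik3cd, Pik3cg, Pik3r2, Pik3r3, Pik3r5, Pik3r6 and Pik3ap1, out of 33618 identifiers. They are the class I catalytic subunits and their regulatory partners except Pik3r1, together with Pik3ap1, which encodes the adaptor BCAP and is not a subunit. All 9 passed the filter on low counts, which left 16753 genes in the test. The genes were split into 4 ubiquitous isoforms (Pik3ca, Pik3cb, Pik3r2, Pik3r3) and 5 leukocyte genes (Pik3cd, Pik3cg, Pik3r5, Pik3r6, Pik3ap1).

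Bulk RNA-Seq was made from whole parametrial white adipose tissue (pmWAT) of 13 female mice, with 1 library per mouse. All mice were homozygous for a floxed Lmna allele and received intraperitoneal tamoxifen at 50 mg/kg on 5 consecutive days when 12 to 14 weeks old, and the tissue was taken 2 weeks posttamoxifen. Lmna encodes lamins A and C of the nuclear lamina. The 7 mice labelled fl/fl carried no Cre. The 6 mice labelled iADKO also carried 1 copy of Adipoq-CreERT2, a tamoxifen-dependent Cre driven by the adiponectin promoter in adipocytes, so other cells of the tissue kept the allele. The vascular and immune cells of the depot were part of every library. The libraries held 18854223 to 19776491 counts.

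Counts over the whole Lmna gene, which do not separate the floxed exons, did not show the deletion. Lmna had 74.7 to 98.5 CPM (the counts-per-million scale, normalized by TMM) in fl/fl and 80.1 to 109 in iADKO, with a log2 fold change (iADKO minus fl/fl) of 0.19 (SE 0.079, edgeR adjusted p = 0.0785). Directions below therefore rest on the labels of the libraries. The TMM factors, which scale the library sizes, were 0.892 to 1.02 in fl/fl and 1.05 to 1.10 in iADKO. They did not overlap between the genotypes, so small fold changes depend on this scaling. Some libraries stood apart in the marker genes of leukocytes. The summed level of 5 pan-leukocyte markers ranged from 344 to 762 CPM in fl/fl, with fl/fl replicate 5 the highest. In iADKO it ranged from 566 to 896 CPM, with iADKO replicate 6 the lowest. The level in fl/fl replicate 7, 594 CPM, was also above that of iADKO replicate 6. The remaining fl/fl libraries were at 400 CPM or below. The animal numbers in the library names also ran in series, of which only the series 722 to 727 (fl/fl replicates 4 and 5, iADKO replicates 4 and 6) and 747 to 765 (fl/fl replicates 1 to 3, iADKO replicates 1 and 2) held both genotypes. The labels do not say what the numbers mark.

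The 9 genes were chosen by their family and by their measured fold changes between fl/fl and iADKO in these libraries, so their fold changes are given as a description. Over all genes tested, 14.1% were called higher and 16.3% lower in iADKO (edgeR quasi-likelihood test, Benjamini-Hochberg adjusted p under 0.05), and the median log2 fold change was 0.03. All 5 leukocyte genes were called higher, with a median log2 fold change of 0.59. Of the 4 ubiquitous isoforms, 1 was called lower and 0 higher, with a median of -0.19. Nothing is read from these counts, since the choice of genes used the same contrast. In none of the 5 leukocyte genes did every iADKO library lie above every fl/fl library, as it did for 2.71% of all genes. In 1 of the ubiquitous isoforms, Pik3cb, every iADKO library lay below every fl/fl library in CPM, as it did for 3.93%.

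**Figure D1:**
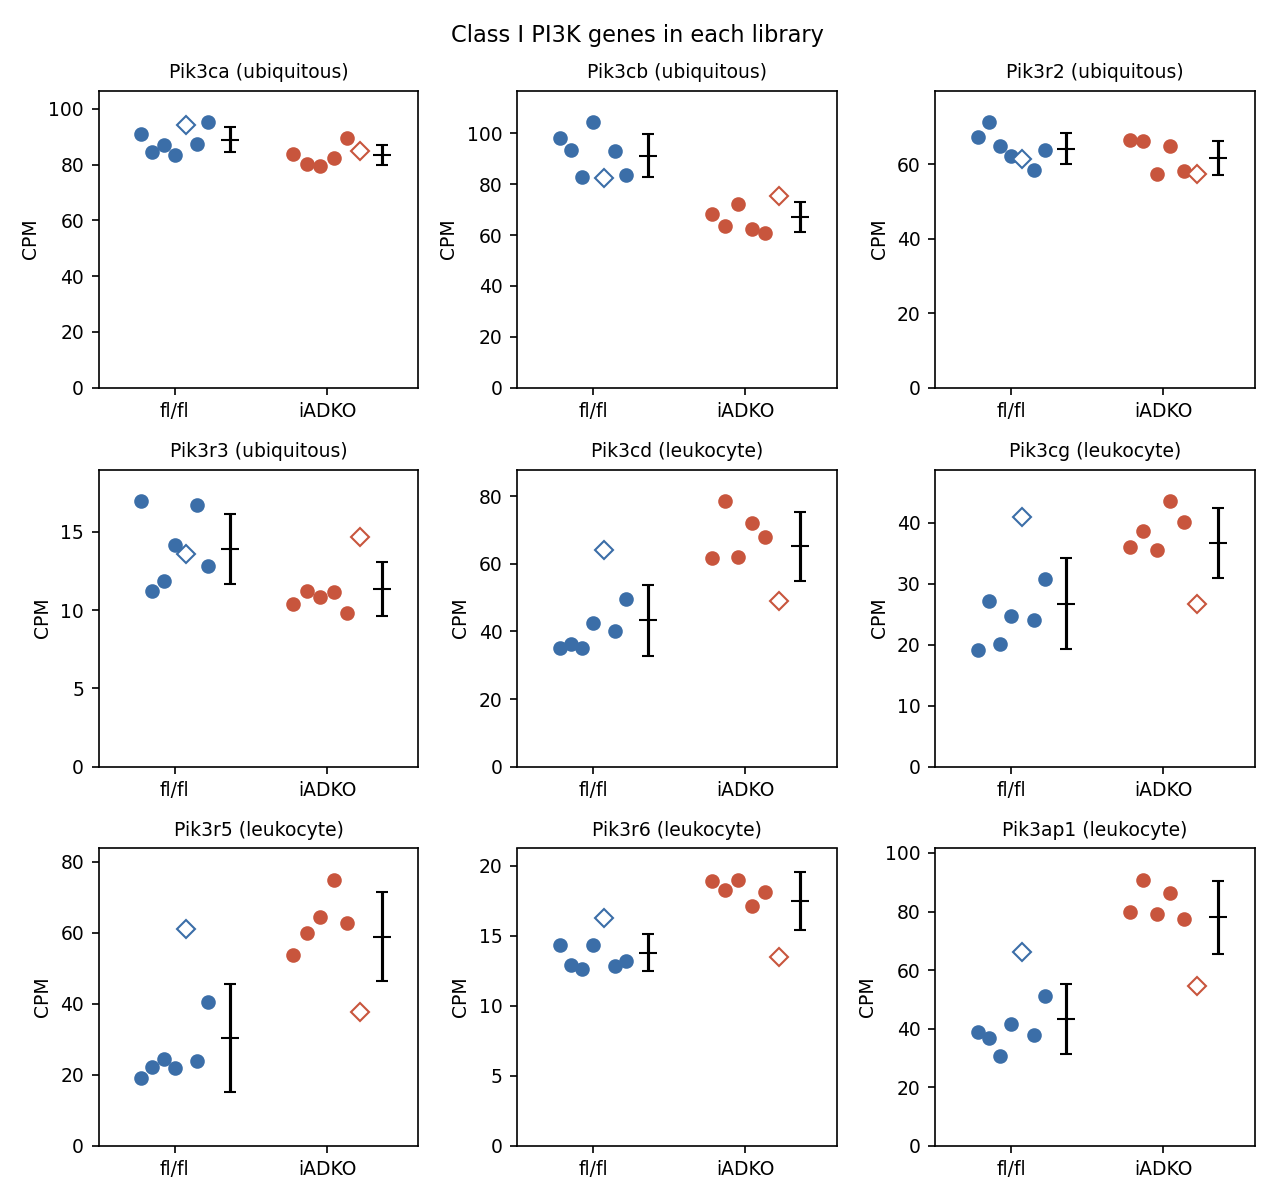
TMM-normalized CPM of the 9 genes, 1 point per library, with the group mean and SD beside the points (7 fl/fl, 6 iADKO). Open diamonds mark fl/fl replicate 5 and iADKO replicate 6, which lie among or nearest to the other genotype in the 5 leukocyte genes. Pik3cb separates the groups, at 82.6 CPM or above in fl/fl and 75.6 CPM or below in iADKO.

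Of the ubiquitous catalytic subunits, Pik3cb was the one whose level differed most. Pik3cb encodes p110β, which can be activated by G protein-coupled receptors as well as by receptor tyrosine kinases. The gene (ENSMUSG00000032462) lies on the minus strand of chromosome 9, at 98918704 to 99022674 on GRCm39, and its canonical transcript has 24 exons. Its level in fl/fl was 82.6 CPM at the lowest, 93.3 at the median and 104 at the highest. In iADKO the same values were 60.9, 65.9 and 75.6 CPM. The groups did not overlap in CPM, and iADKO replicate 6 was the highest of its group. Before TMM scaling the counts did overlap, at 1436 to 1944 in fl/fl and 1275 to 1539 in iADKO. The mean was 91.2 ± 8.44 CPM (SD, n = 7) in fl/fl and 67.2 ± 5.89 (SD, n = 6) in iADKO, and the log2 fold change was -0.44 (SE 0.071). Within the animal numbers 722 to 727 the log2 fold change was -0.44 (SE 0.18), and within 747 to 765 it was -0.48 (SE 0.089).

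Pik3ca encodes p110α, the isoform known to carry most of the insulin signal in metabolic tissues. It is on the plus strand of chromosome 3, from 32451820 to 32522635, with 20 exons. Pik3ca ranged from 83.5 to 95.2 CPM in fl/fl, with a median of 87.5, and from 79.5 to 89.5 CPM in iADKO, with a median of 83.2. The groups overlapped, and 3 of the 6 iADKO libraries lay below every fl/fl library. The log2 fold change was -0.09 (SE 0.046). Before TMM scaling the counts of Pik3ca were 1505 to 1862 in fl/fl and 1653 to 1873 in iADKO, so the sign of this small difference rests on the scaling. The ratio of Pik3ca to Pik3cb per kilobase of exon, on the log2 scale, was -0.14 ± 0.19 (SD, n = 7) in fl/fl and 0.21 ± 0.15 (SD, n = 6) in iADKO. Which of them is higher in fl/fl depends on the length used, and per coding length the mean of Pik3ca was above that of Pik3cb.

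The regulatory subunits of the ubiquitous group are p85β (Pik3r2) and p55γ (Pik3r3), which hold p110 inactive until their SH2 domains bind phosphotyrosine on a receptor or adaptor. Pik3r2 (chromosome 8, minus strand, 71220774 to 71229412, 16 exons) ranged from 58.6 to 71.3 CPM in fl/fl with a median of 63.9, and from 57.3 to 66.5 CPM in iADKO with a median of 61.5. These ranges overlapped over most of their length, and the log2 fold change was -0.06 (SE 0.057). Before TMM scaling the counts of Pik3r2 were 1062 to 1299 in fl/fl and 1167 to 1421 in iADKO, so this sign too rests on the scaling. Pik3r3 (chromosome 4, plus strand, 116078393 to 116160255, 10 exons) was the lowest of the ubiquitous group, at 11.2 to 17.0 CPM in fl/fl with a median of 13.6, and at 9.84 to 14.7 CPM in iADKO. Its log2 fold change was -0.29 (SE 0.12). All iADKO libraries except replicate 6, at 14.7 CPM, lay below every fl/fl library. In the annotation Pik3r3 overlaps a protein-coding gene, Gm49337, that shares 1289 exon bases with it on the same strand. The deposited counts hold no entry for Gm49337, and how reads on the shared bases were counted is not given in the sources used here.

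Pik3cd encodes p110δ, which acts downstream of antigen receptors and cytokine receptors. It lies on the minus strand of chromosome 4, at 149732411 to 149787028, with 24 exons. Its level in fl/fl was 35.1 CPM at the lowest, 40.3 at the median and 64.1 at the highest. In iADKO these were 48.9, 65.1 and 78.5 CPM. The groups overlapped through fl/fl replicate 5 (64.1 CPM), fl/fl replicate 7 (49.7 CPM) and iADKO replicate 6 (48.9 CPM), and 3 of the 6 iADKO libraries lay above every fl/fl library. The mean was 43.3 ± 10.5 CPM (SD, n = 7) in fl/fl and 65.2 ± 10.2 (SD, n = 6) in iADKO, and the log2 fold change was 0.59 (SE 0.15). Pik3cd shares 1244 exon bases with Clstn1 on the opposite strand. Clstn1 had a log2 fold change of -0.15 (SE 0.065), and the libraries were made with a strand-specific kit, although whether the counting used strand is not given in the sources used here.

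Pik3cg encodes p110γ, which G protein βγ subunits activate below chemokine receptors. The gene lies on the minus strand of chromosome 12, at 32223472 to 32258659, with 11 exons. Pik3cg was at 19.1 CPM at the lowest, 24.7 at the median and 41.0 at the highest in fl/fl, and at 26.6, 37.3 and 43.5 CPM in iADKO. Only 1 iADKO library lay above every fl/fl library, while all 6 lay above the fl/fl median. The log2 fold change was 0.46 (SE 0.16), and the call of Pik3cg was the least stable of the 9, lost under 14 of the 24 other fits.

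The γ catalytic subunit works with regulatory subunits of its own, p101 (Pik3r5) and p84 (Pik3r6), which bind G protein βγ and carry no SH2 domain. The 2 genes are neighbors on the plus strand of chromosome 11, Pik3r5 at 68322939 to 68388675 with 19 exons and Pik3r6 at 68393845 to 68443524 with 20 exons. Pik3r5 was at 19.1, 23.7 and 60.9 CPM (lowest, median, highest) in fl/fl and at 37.6, 61.4 and 74.8 CPM in iADKO. It had the largest fold change of the 9 genes, 0.95 on the log2 scale (SE 0.27), and the widest spread in fl/fl, with a coefficient of variation of 49.8%. Of the fl/fl libraries, replicate 5 (60.9 CPM) and replicate 7 (40.4 CPM) stood above the other 5, which were at 24.5 CPM or below. Pik3r6 was at 12.7, 13.2 and 16.3 CPM in fl/fl and at 13.5, 18.2 and 18.96 CPM in iADKO, a log2 fold change of 0.34 (SE 0.087). Here 5 of 6 iADKO libraries lay above every fl/fl library, and iADKO replicate 6 (13.5 CPM) lay among the fl/fl libraries. The neighbors therefore differed in spread as well as in level, with a coefficient of variation of 9.51% for Pik3r6 in fl/fl.

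Pik3ap1 encodes BCAP, an adaptor that brings class I PI3K to the B cell receptor and to Toll-like receptors. The gene is on the minus strand of chromosome 19, at 41260816 to 41373548, with 17 exons. Its level in fl/fl was 30.5 CPM at the lowest, 38.9 at the median and 66.2 at the highest, and in iADKO 54.7, 79.6 and 90.6 CPM. All iADKO libraries except replicate 6 (54.7 CPM) lay above every fl/fl library. The mean was 43.3 ± 11.9 CPM (SD, n = 7) in fl/fl and 78.1 ± 12.5 (SD, n = 6) in iADKO, and the log2 fold change was 0.85 (SE 0.16).

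Within the animal numbers 722 to 727, which include both fl/fl replicate 5 and iADKO replicate 6, log2 fold changes of the 5 leukocyte genes had 0.18 as their median, and Pik3r6 was at -0.0026. In that series, with 2 libraries a group, 0 of the 9 genes and 0 of all genes were called by edgeR, while 657 of all genes and 0 of the 9 had an unadjusted p under 0.05. Within 747 to 765 the median was 0.97 and all 5 were called, beside 12.6% of all genes called higher. With the series as a term in the fit over all 13 libraries, only the libraries of 722 to 727 and 747 to 765 inform the difference between genotypes. There 1 of the 5 leukocyte genes, Pik3ap1, kept its call, beside 4.68% of all genes called higher, and 4 of the 5 had an unadjusted p under 0.05. The log2 fold changes in that fit were 0.62 for Pik3cd, 0.45 for Pik3cg, 0.95 for Pik3r5, 0.26 for Pik3r6 and 0.87 for Pik3ap1, with a median of 0.62. When fl/fl replicate 5 was left out together with iADKO replicate 6, all 5 were called, beside 19.6% of all genes called higher. Their median was 0.76. In each of the 5 genes these libraries were the highest of fl/fl and the lowest of iADKO. A larger median therefore follows from leaving them out, and nothing is read from it.

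The promoters of 8 of the 9 genes, 13 windows in all, were found in a RefSeq table for GRCm38.p6 that gives 250 bases before to 50 bases after each start. Pik3r6 had no entry in that table. Some of the windows, from genes of both groups, are shown as a description. Each line below gives a window 5′ to 3′, and capitals mark GAGGAA or its reverse complement TTCCTC, the letters at the core of sites for PU.1, an ETS factor of myeloid and B cells. The windows are chr12:32208610-32208909 (minus strand) for Pik3cg, chr19:41385053-41385352 (minus strand) for Pik3ap1, chr11:68431875-68432174 (plus strand) for Pik3r5 and chr9:99140162-99140461 (minus strand) for Pik3cb.
Pik3cg: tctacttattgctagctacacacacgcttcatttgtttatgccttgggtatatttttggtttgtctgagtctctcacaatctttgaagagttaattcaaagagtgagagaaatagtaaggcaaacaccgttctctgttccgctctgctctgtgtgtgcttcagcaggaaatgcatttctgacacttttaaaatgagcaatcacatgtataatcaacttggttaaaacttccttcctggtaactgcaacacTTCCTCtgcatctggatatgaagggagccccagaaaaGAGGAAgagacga
Pik3ap1: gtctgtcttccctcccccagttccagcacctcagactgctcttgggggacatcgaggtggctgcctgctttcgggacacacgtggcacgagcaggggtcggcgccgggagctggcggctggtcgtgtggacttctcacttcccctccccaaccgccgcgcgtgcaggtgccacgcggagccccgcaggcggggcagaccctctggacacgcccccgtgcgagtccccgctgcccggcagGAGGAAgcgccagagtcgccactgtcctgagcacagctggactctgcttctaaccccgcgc
Pik3r5: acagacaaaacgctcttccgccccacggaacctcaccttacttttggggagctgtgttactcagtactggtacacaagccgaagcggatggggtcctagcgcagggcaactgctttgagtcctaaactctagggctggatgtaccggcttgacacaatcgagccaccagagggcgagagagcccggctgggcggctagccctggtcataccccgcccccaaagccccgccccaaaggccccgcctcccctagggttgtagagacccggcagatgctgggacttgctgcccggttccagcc
Pik3cb: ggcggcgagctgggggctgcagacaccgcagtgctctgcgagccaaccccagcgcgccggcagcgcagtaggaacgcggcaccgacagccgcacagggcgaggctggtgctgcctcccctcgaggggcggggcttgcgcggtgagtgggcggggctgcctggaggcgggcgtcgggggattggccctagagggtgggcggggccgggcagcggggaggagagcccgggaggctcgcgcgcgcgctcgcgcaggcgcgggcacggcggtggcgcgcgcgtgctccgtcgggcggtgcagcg
The letters occurred in 28.3% of the 32851 promoters in the table, on either strand, with no other motif searched. The Pik3cg window held 1 match on each strand, and a second window for Pik3cg overlaps the first and holds the same matches. Pik3ap1 held 1 match. Pik3r5, Pik3cb, Pik3ca, Pik3r2 and all 3 windows of Pik3cd held none, while 2 of the 3 windows of Pik3r3 held 1 each. A match is a description of the letters in the window. The promoters also differed in base composition. The ratio of observed to expected CpG was 0.32 in the Pik3cg window against a median of 0.38 over the table, 0.56 in Pik3r5, 0.72 in Pik3ap1 and 0.99 in Pik3cb.

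Levels were compared between genes as CPM per kilobase of annotated exon. In fl/fl the order was Pik3cb (10.8 ± 1.00, SD, n = 7), Pik3r2 (10.2), Pik3ca (9.80), Pik3ap1 (7.56), Pik3cd (4.97), Pik3r5 (4.63), Pik3r6 (3.52), Pik3cg (3.15) and Pik3r3 (2.45). The ubiquitous Pik3cb, Pik3r2 and Pik3ca thus stood at the top of the order, and the ubiquitous Pik3r3 stood at its end. Each neighboring pair was compared within mice by an exact two-sided sign-flip permutation test on the log2 ratio. The smallest p of this test is 0.0156, and the p-values were adjusted over the 8 pairs. In both genotypes the pairs and their direction came from the means of the same libraries, so the p-values are given as a description. None of the 8 passed, but a single pair at the smallest p cannot pass this adjustment. Pik3ap1 was above Pik3cd in 7 of 7 mice, with a mean log2 ratio of 0.60 ± 0.11 (SD, n = 7; p = 0.0156, adjusted p = 0.125, exact permutation test), and Pik3ca was above Pik3ap1 in 6 of 7 (p = 0.0313, adjusted p = 0.125, exact permutation test). For the other 6 pairs the mean log2 ratio was below its SD, and 4 or 5 of 7 mice showed the order given.

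In iADKO the order was Pik3ap1 (13.6 ± 2.18, SD, n = 6), Pik3r2 (9.82), Pik3ca (9.18), Pik3r5 (8.96), Pik3cb (7.98), Pik3cd (7.49), Pik3r6 (4.46), Pik3cg (4.33) and Pik3r3 (2.00). Pik3ap1 stood first here. Pik3ap1 was above Pik3r2, Pik3cd above Pik3r6, and Pik3cg above Pik3r3 in 6 of 6 mice each (p = 0.0313 for each, the smallest that the exact permutation test allows with 6 mice, adjusted p = 0.0833), with mean log2 ratios of 0.46 ± 0.20, 0.74 ± 0.17 and 1.11 ± 0.42 (SD, n = 6). The order depends on the length used for each gene. With the longest annotated transcript in place of all exons, 3 of the 9 genes kept their place in the fl/fl order and 4 of the 8 neighboring pairs passed. With the coding length, 4 genes kept their place, 0 pairs passed, and Pik3ca stood first, above Pik3cb.

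The catalytic isoforms were also expressed as shares of their summed level per kilobase in each mouse. In fl/fl, Pik3cb held 37.9% ± 4.40, Pik3ca 34.2% ± 2.06, Pik3cd 17.1% ± 2.90 and Pik3cg 10.8% ± 2.28 (SD, n = 7). In iADKO, Pik3ca held 31.7% ± 1.92, Pik3cb 27.6% ± 3.49, Pik3cd 25.7% ± 3.16 and Pik3cg 14.9% ± 1.86 (SD, n = 6). Pik3cd and Pik3cg together went from 28.0% ± 5.03 of the catalytic transcript level in fl/fl, with a range of 22.4% to 37.6%, to 40.6% ± 4.77 in iADKO, with a range of 32.3% to 45.3%. The groups overlapped, through fl/fl replicate 5 at 37.6% and iADKO replicate 6 at 32.3%. The log2 ratio of Pik3cd to Pik3cb was -1.15 ± 0.40 (SD, n = 7) in fl/fl and -0.10 ± 0.35 (SD, n = 6) in iADKO. The ratio between the leukocyte isoforms, Pik3cd over Pik3cg, was 0.67 ± 0.15 in fl/fl and 0.79 ± 0.11 in iADKO on the same scale, and the ranges of the groups, 0.37 to 0.84 and 0.69 to 0.99, overlapped. The shares depend on the length used. With the longest transcript, Pik3cd and Pik3cg together held 32% in fl/fl and 45% in iADKO, and with the coding length 28% and 41%. Shares of RNA are not shares of protein or of enzyme activity.

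**Figure D2:**
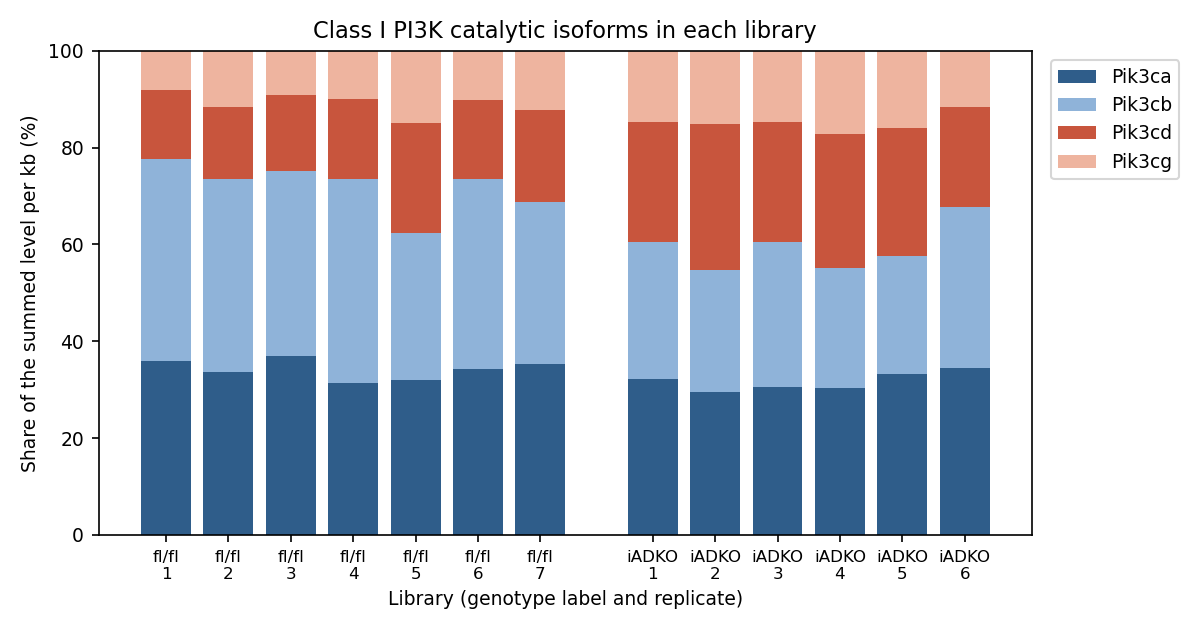
Share of each catalytic isoform in the summed level per kilobase of Pik3ca, Pik3cb, Pik3cd and Pik3cg, in percent, with 1 bar per library labelled by genotype and replicate. Pik3cd and Pik3cg together (red shades) held 22.4% to 37.6% in fl/fl and 32.3% to 45.3% in iADKO.

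In bulk tissue, more cells of a type and more RNA per cell cannot be told apart. The marker genes of leukocytes moved with the leukocyte PI3K genes. The marker lists were chosen with earlier results of these data known, so their counts are given as a description. Of all genes, 14.1% were called higher and 16.3% lower. All 5 pan-leukocyte markers rose, with a median log2 fold change of 0.73, as for Ptprc, the leukocyte phosphatase CD45 (0.71, SE 0.17, edgeR adjusted p = 0.00846). Of 8 macrophage markers, 5 rose and 0 fell (median 0.53), with summed levels of 873 to 1669 CPM in fl/fl and 1111 to 1885 CPM in iADKO. Of 5 B cell markers 3 rose (median 0.79), of 5 T cell markers 3 rose (median 0.44) and of 4 NK cell markers 3 rose (median 0.62), and none fell. These lymphocyte lists were low in both groups. Their summed levels were 25.2 to 61.8 CPM in fl/fl against 50.6 to 93.7 CPM in iADKO for B cells, 15.5 to 24.6 against 23.9 to 29.4 CPM for T cells, and 6.67 to 12.6 against 13.7 to 17.3 CPM for NK cells. None of the 4 neutrophil markers passed (median 0.99), at 14.2 to 161 CPM in fl/fl and 57.5 to 232 CPM in iADKO, and Ly6g among them was at 0 in at least 1 fl/fl library. No other marker was at 0 in any library.

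Markers of the other cells of the depot were measured as well, from lists chosen in the same way. Their counts also stand beside 14.1% of all genes called higher and 16.3% called lower. The defining genes of adipocytes were present in every library, and all 6 fell, with a median log2 fold change of -0.95 and summed levels of 8266 to 15864 CPM in fl/fl and 5643 to 9729 CPM in iADKO. Of 4 endothelial markers 2 fell and 0 rose (median -0.20, summed levels 653 to 896 CPM in fl/fl and 669 to 757 CPM in iADKO). No adipose progenitor marker of 4 passed (median 0.05, 1327 to 1757 and 1253 to 1638 CPM), nor any mesothelial marker of 4 (median 0.25, 273 to 580 and 260 to 694 CPM). The part of these markers' cells in the PI3K differences was not tested.

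The relation to leukocyte markers was therefore examined within each genotype, which the choice of genes did not use. Each gene's log2 CPM was correlated with the mean log2 CPM of the 5 pan-leukocyte markers over the 7 fl/fl and, separately, the 6 iADKO libraries. Over the 18 relations, 6 passed by Pearson's r after adjustment and 0 by Spearman's rho (exact two-sided permutation tests). In fl/fl, 4 of the leukocyte genes passed. Pik3cd had r = 0.95 (p = 0.00417, adjusted p = 0.0188, exact) and rho = 0.82 (p = 0.0341, adjusted p = 0.205, exact). Pik3cg had r = 0.94 (p = 0.00119, adjusted p = 0.0188, exact) and rho = 0.93 (p = 0.00675, adjusted p = 0.121, exact). Pik3r5 had r = 0.96 (p = 0.00992, adjusted p = 0.0357, exact) and rho = 0.61 (p = 0.167, adjusted p = 0.429, exact). In Pik3r5 the rank coefficient was thus well below r. Pik3ap1 had r = 0.94 (p = 0.00417, adjusted p = 0.0188, exact) and rho = 0.68 (p = 0.110, adjusted p = 0.329, exact). Without the 2 fl/fl libraries farthest from the median, replicates 5 and 7, r was 0.62 for Pik3cd, 0.92 for Pik3cg, 0.07 for Pik3r5 and 0.62 for Pik3ap1, so the relation of Pik3cd, Pik3r5 and Pik3ap1 rests on those libraries. With fl/fl replicate 5 alone or replicate 7 alone left out, 0 of the 18 relations passed after adjustment, Pik3cg included, and 5 had an unadjusted p under 0.05.

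In iADKO, Pik3ap1 and Pik3cd passed. Pik3ap1 had r = 0.98 (p = 0.00278, adjusted p = 0.0188, exact) and rho = 0.94 (p = 0.0167, adjusted p = 0.15, exact). Pik3cd had r = 0.92 (p = 0.0125, adjusted p = 0.0375, exact) and rho = 0.83 (p = 0.0583, adjusted p = 0.263, exact). Without the 2 iADKO libraries farthest from the median, r was 0.87 for Pik3ap1 and 0.39 for Pik3cd. Pik3r6 did not pass in either genotype, with r = 0.57 in fl/fl and 0.81 in iADKO, and these were -0.04 and -0.53 without the 2 farthest libraries. The lowest r of the 5 leukocyte genes, 0.57 over all libraries, was -0.11 without fl/fl replicate 5 and -0.38 without iADKO replicate 6. Of the ubiquitous isoforms none passed. Pik3cb had r = -0.56 in fl/fl and -0.63 in iADKO, Pik3ca 0.74 and -0.52, Pik3r2 -0.29 and 0.63, and Pik3r3 -0.15 and -0.69. Without the 2 farthest libraries these became 0.51 and 0.13 for Pik3cb, -0.56 and -0.73 for Pik3ca, -0.12 and 0.26 for Pik3r2, and 0.01 and 0.98 for Pik3r3, so that the sign turned for Pik3cb and Pik3r3 in both genotypes and for Pik3ca in fl/fl. The 18 relations share the same marker mean, and no difference between genes or genotypes in r was tested.

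**Figure D3:**
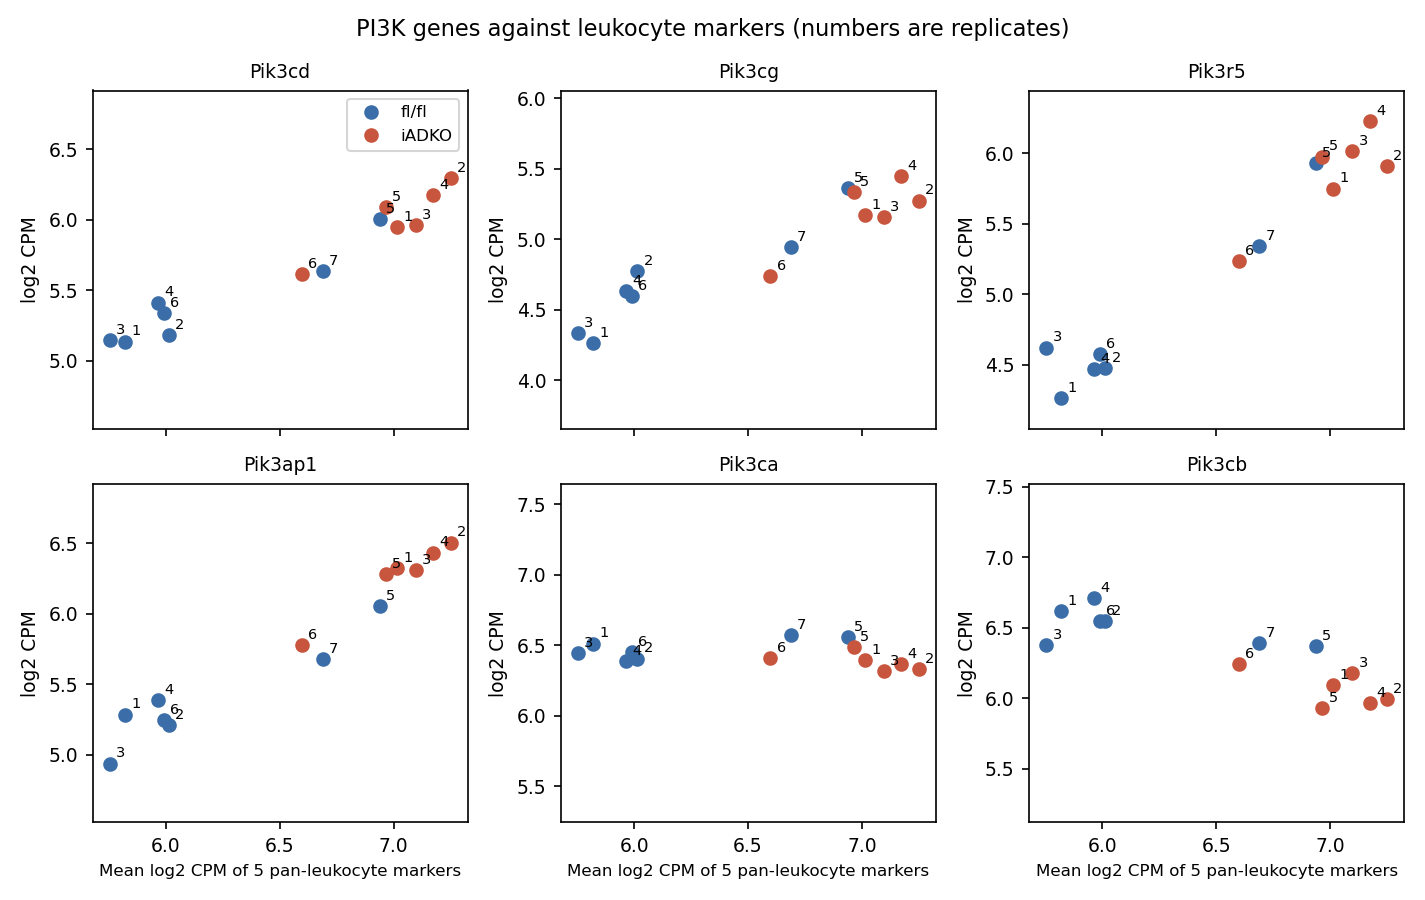
Log2 CPM of 6 of the genes (vertical axis) against the mean log2 CPM of 5 pan-leukocyte markers (horizontal axis), 1 point per library labelled by replicate, fl/fl in blue and iADKO in red. In Pik3cd, Pik3cg, Pik3r5 and Pik3ap1 the fl/fl replicates 5 and 7 and the iADKO replicate 6 lie among or next to libraries of the other genotype, while Pik3ca spans only 79.5 to 95.2 CPM over all libraries.

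The genes most like each member across mice were found by the Pearson correlation of log2 CPM over the 13 libraries after the mean of each genotype was removed, among 13853 genes with a mean log2 CPM of at least 1. These are descriptions of libraries that share depth and tissue makeup. For Pik3cd the 3 nearest were Stra6l, Arhgap4 and Nfkb1 (r = 0.98 for each). For Pik3cg they were Tmem176a, Tmem176b and Aoah (r = 0.97 to 0.98). For Pik3r5 they were C5ar1, the receptor of complement C5a, with Laptm5 and Apaf1 (r = 0.97 to 0.98), and Laptm5 is also one of the pan-leukocyte markers. For Pik3ap1 they were Cyth4, Csf2ra and Sash3 (r = 0.97 to 0.98). Pik3r6 was apart from these, nearest to Gm20045, Tmem127 and Hltf (r = 0.89 to 0.92).

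Among themselves, Pik3cd, Pik3cg, Pik3r5 and Pik3ap1 correlated at 0.87 to 0.95 by the same measure, while Pik3r6 correlated with them at 0.58 to 0.77. Pik3cb was negatively correlated with each leukocyte gene, from -0.26 with Pik3r6 to -0.70 with Pik3r5, and its nearest genes were Jam2, a junctional adhesion molecule, Crispld1 and Tspan18 (r = 0.88 to 0.92). Pik3ca was nearest to Gm31166, Retnlg and Mcemp1 (r = 0.84 to 0.90), of which Retnlg is known from neutrophils. For Pik3r2 the nearest were Wtip, Mus81 and Rabl6 (r = 0.84 to 0.89), and for Pik3r3 Ube2r2, Btrc and Prkaa1, a catalytic subunit of AMPK (r = 0.86 to 0.87).

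The other genes of the pathway were taken from a list of 40, of which 39 were tested and Pik3c2g had too few counts. The list was chosen with earlier results of these data known, so its shares are given as a description. Of the 39, 14 rose (35.9%, beside 14.1% of all genes) and 5 fell (12.8%, beside 16.3% of all genes), with a median log2 fold change of 0.14. The share that fell was thus no larger than that of all genes, and the genes that fell are given as single genes. The PI3K of the other classes (Pik3c2a, Pik3c2b, Pik3c3 and its partner Pik3r4), which make other phosphoinositides, included 0 that rose and 0 that fell of 4. Among 11 receptors and adaptors upstream of PI3K, 4 rose and 2 fell. Blnk, the B cell linker protein, rose from 15.8 ± 7.94 CPM (SD, n = 7) to 31.2 ± 6.43 (SD, n = 6), a log2 fold change of 0.98 (SE 0.26, edgeR adjusted p = 0.0134). Tyrobp, the DAP12 adaptor of myeloid and NK receptors, rose by 0.93 (SE 0.25, edgeR adjusted p = 0.0162). The 2 that fell were the insulin receptor Insr and Irs1, one of its substrates, while Irs2, another substrate named after its value was seen, had a log2 fold change of 0.09 (SE 0.19, edgeR adjusted p = 0.739). Insr fell from 247 ± 14.0 CPM (SD, n = 7) to 164 ± 18.1 (SD, n = 6), a log2 fold change of -0.59 (SE 0.069, edgeR adjusted p = 1.68e-04), and its groups did not overlap. Irs1 had a log2 fold change of -0.54 (SE 0.16, edgeR adjusted p = 0.0198).

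Downstream, of 17 genes whose products bind or act on PIP3 signals, 9 rose and 2 fell. Dock2, which activates the GTPase Rac in leukocytes, rose by 0.84 on the log2 scale (SE 0.20, edgeR adjusted p = 0.0071), from 63.4 ± 23.1 CPM (SD, n = 7) to 114 ± 18.9 (SD, n = 6). Vav1, another Rac activator of blood cells, rose by 0.78 (SE 0.22, edgeR adjusted p = 0.0191). Akt2, the AKT isoform of the insulin response, was 418 to 548 CPM in fl/fl and 274 to 368 CPM in iADKO, and these ranges did not overlap. Its log2 fold change was -0.64 (SE 0.083, edgeR adjusted p = 2.75e-04), the lowest of the list. Of the phosphoinositide phosphatases, Inpp5d, the SHIP1 phosphatase of blood cells, rose by 0.60 (SE 0.16, edgeR adjusted p = 0.0143). Blnk, Tyrobp, Dock2 and Vav1, the 4 highest of the list, are known mainly from leukocytes, while Akt2, Insr and Irs1, the 3 lowest, are known from insulin signaling.

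**Figure D4:**
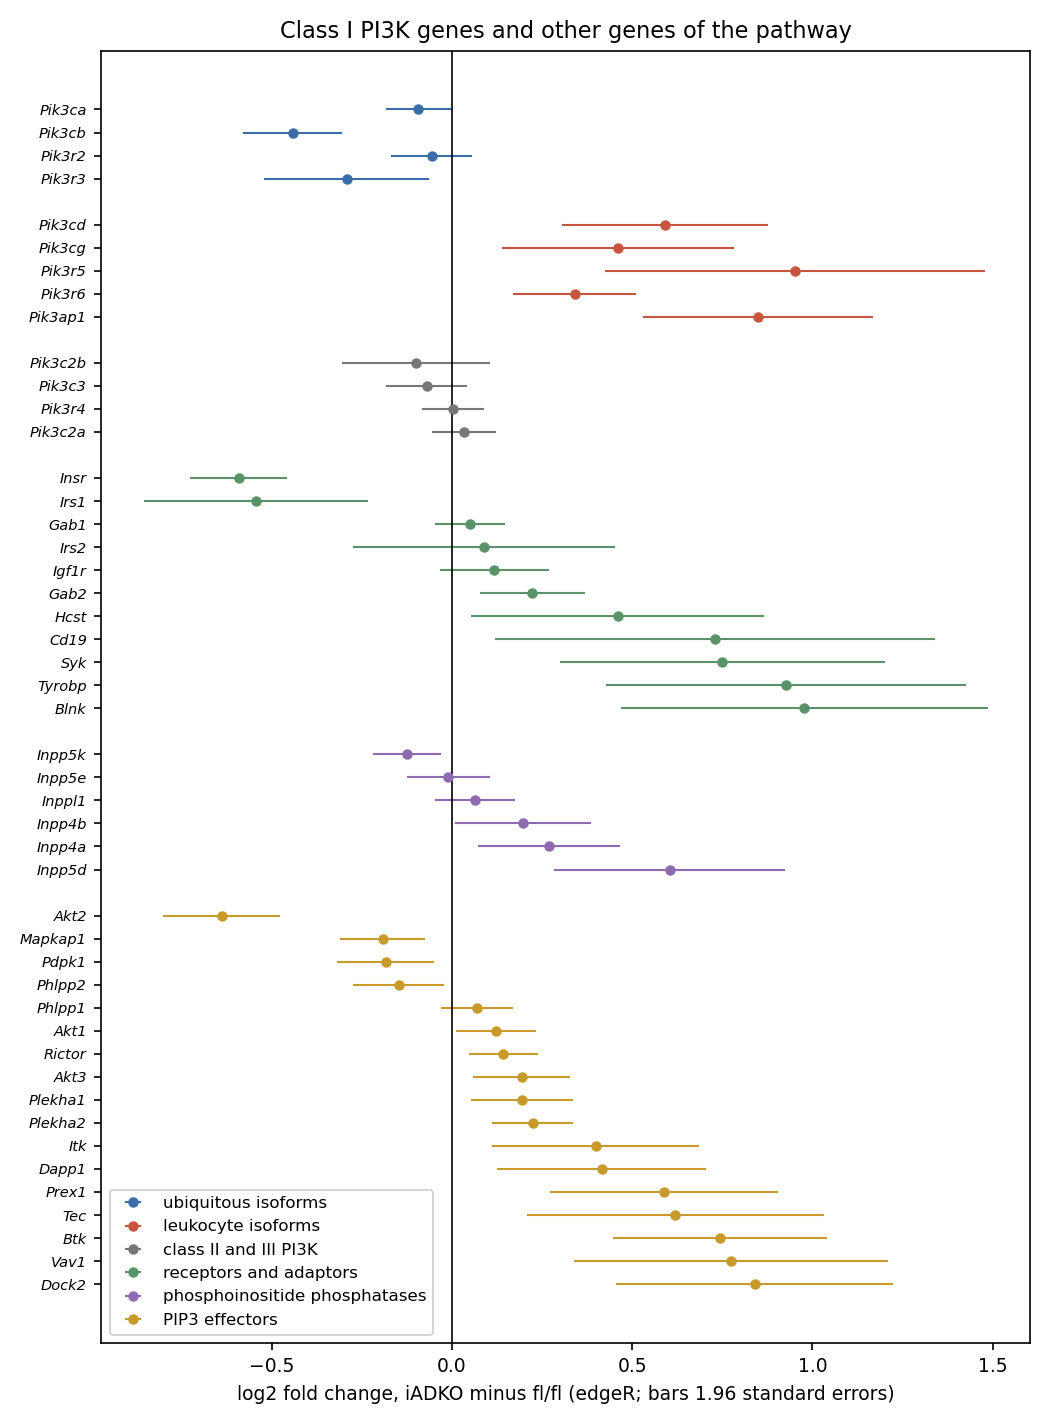
Log2 fold change (iADKO minus fl/fl, edgeR after TMM scaling) of the 9 class I PI3K genes and of other genes of the pathway, with bars of approximate 95% intervals and colors by group. Ubiquitous isoforms lie at -0.44 to -0.06 and leukocyte genes at 0.34 to 0.95, and in the other groups Akt2 (-0.64) and Insr (-0.59) are the lowest and Blnk (0.98) is the highest.

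Within the animal numbers 722 to 727, 0 pathway genes rose and 0 fell by edgeR (0 and 1 with an unadjusted p under 0.05), while within 747 to 765 17 rose and 5 fell, beside 12.6% and 15.4% of all genes. With the series as a term, 1 rose and 2 fell, beside 4.68% and 7.17% of all genes. Without fl/fl replicate 5 and iADKO replicate 6 together, 18 rose and 8 fell, beside 19.6% and 23.3% of all genes.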

How the data were processed

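Bulk RNA-Seq libraries of pmWAT from 7 mice labelled fl/fl and 6 labelled iADKO were used, with genotypes and replicate numbers from the sample labels. The authors deposited raw counts per Ensembl gene, without normalization, and log2 values made from them by the regularized log (rlog) of DESeq2. Per the submitters' processing notes and the methods, strand-specific libraries were checked with FastQC 0.12.1, aligned with STAR 2.7.11a to mm39 and analyzed with DESeq2. The counting tool and annotation are not given in the sources used here. Between 18854223 and 19776491 reads per library were counted, and each SD is over mice and so includes counting error. Compared pairwise within a genotype, libraries differed with a chi-square per degree of freedom of 8.16 to 88.8, above counting error.

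Counts were filtered with filterByExpr, normalized by TMM and compared with the robust quasi-likelihood test of edgeR 4.0.16 in R 4.3.3 across 16753 genes, with Benjamini-Hochberg adjustment and a threshold of 0.05. Log2 CPM used a prior count of 2. The test was checked on simulated counts. GENCODE vM39 (GRCm39) matched 33184 identifiers and gave coordinates and exon lengths. Exact tests and correlations used scipy 1.17.1. The alternatives were DESeq2 1.42.0, its size factors, other filters, limma 3.58.1 on the rlog values, normalization without mitochondrially encoded genes, blocks by replicate number or animal series, and leaving out libraries. Fits within an animal series were added after the data were seen. The genes and lists were chosen with earlier results of these data known. Besides the 9 genes and Lmna, genes were named if they were among the 4 highest and 4 lowest called genes of the pathway list, had groups that did not overlap, were among the 3 nearest by correlation, or overlapped a member. Inpp5d, the only phosphatase that rose, was named after its value was seen. Single markers were limited to 2 a list. The values of 1 gene of the pathway list are not reported here.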

Additional observations from a re-analysis of the deposited data

Results flagged for a closer look

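In iADKO replicate 6, 3 genes lay far from the other 5 iADKO libraries. Pik3r3 was at 14.7 CPM, above the others, with a gap to the nearest library of 0.72 of the range of the group. Pik3r6 was at 13.5 CPM and Pik3ap1 at 54.7 CPM, both below the others, with gaps of 0.667 and 0.636 of the range. Dixon's critical value for 6 samples is 0.625. The 9 genes were checked in both genotypes, 18 groups in all, and chance alone flags about 1 group in 20. The same library had the lowest summed pan-leukocyte markers of iADKO, at 566 CPM. The part of that in these values was not tested.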

How the results depend on the processing

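Of the 9 genes, 5 were called higher and 1 lower, beside 30.5% of all genes called in either direction. With the animal series as a block, 1 was called higher, and with no filter on low counts 3 were. Each of these fits called 11.9% of all genes. Within the series 722 to 727, 0 were called higher and 0 lower (0 and 0 at an unadjusted p under 0.05), beside 0 of all genes. Over the fits that leave out 1 library 4 to 5 were called higher and 1 to 2 lower, beside 23.9% to 39.7% of all genes called in either direction. DESeq2 called 3 lower, Pik3ca and Pik3r3 beside Pik3cb, and the fit without fl/fl replicate 5 and iADKO replicate 6 called 2, as did those without fl/fl replicate 2 or without iADKO replicate 6, with Pik3r3 added each time. In the same order, these fits called 34.1%, 42.9%, 26.4% and 34% of all genes in either direction. Pik3cg lost its call in 14 of 24 fits, among them 10 of the 13 that leave out 1 library. Pik3r6 was at -0.0026 within 722 to 727 against 0.34 over all libraries. The causes were not tested.

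The median log2 fold change of the ubiquitous isoforms went from -0.19 to -0.094 within 722 to 727, and that of the leukocyte genes from 0.59 to 0.18 there and to 0.97 within 747 to 765. Leaving out 1 library gave -0.24 to -0.16 and 0.53 to 0.72. Of the pathway genes, 14 rose and 5 fell. These counts were 1 and 2 with the series as a block, 7 rising with no filter, 0 and 0 within 722 to 727, 8 falling without fl/fl replicate 5 and iADKO replicate 6, and 8 to 17 and 4 to 7 over the fits that leave out 1 library. The lowest, 8 rising, came without fl/fl replicate 1, 2 or 3, and 9 rose without fl/fl replicate 4, iADKO replicate 3 or iADKO replicate 5. The shares of all genes called under these fits, or their range, are given above for the 9 genes.

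Neighboring pairs that passed in the fl/fl level order went from 0 to 4 with the longest transcript as the length. Correlations with leukocyte markers that passed went from 6 to 1 with macrophage markers (8 at an unadjusted p under 0.05 against 6, with a lowest r of the leukocyte genes of 0.63 against 0.57), and to 0 to 6 without 1 library, with 0 without fl/fl replicate 5 or without fl/fl replicate 7 (5 at an unadjusted p under 0.05 in either). Leaving out 1 library took that lowest r to between -0.38 and 0.79, and it was negative without fl/fl replicate 5 (-0.11) or iADKO replicate 6 (-0.38). Over all genes, 5104 were called, against 1986 with the series as a block, 4005 with no filter and 0 within 722 to 727 (657 unadjusted).

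Same-numbered libraries of the 2 genotypes had residual correlations of -0.0265 to 0.217, with a mean of 0.107 against -0.020 for the other pairs. Of 6 fl/fl libraries, 3 correlated best with their own number. No label pairs the mice, and the main fit did not pair them. With the replicate number as a block, without fl/fl replicate 7, 4833 genes were called in place of 5104. Of the 9 genes 5 were called higher and 1 lower, the medians were 0.65 and -0.19, and 12 pathway genes rose and 5 fell.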
